A study of Homo sapiens with 2 samples.

Results

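The ER folding chaperones and disulfide isomerases described here are 36 protein-coding genes, chosen by name from the 19951 protein-coding genes in the deposited table of 58735 genes. RNA-Seq was performed on SF-539 cells, an established human glioblastoma (GBM) line labelled as epithelial glioma cells from brain. The cells had been infected with pGIPZ-CTRL lentivirus (shControl) or with lentivirus carrying FKBP9 shRNA (shFKBP9), and both populations, which thus shared infection and selection, were kept as stable clones under puromycin. The labels name neither the hairpin nor the number of clones in each library. There was 1 library per condition, so no test between the conditions could be made, and each difference below is a difference between 2 libraries.

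Proteins of the secretory pathway fold in the lumen of the endoplasmic reticulum (ER). Hsp70 and Hsp90 type chaperones bind unfolded chains, the lectin chaperones retain glycoproteins through their trimmed sugars, and disulfide isomerases pair cysteines with oxidizing power from ERO1 and related oxidases. Many of these genes are transcribed more when unfolded proteins accumulate, through the ATF6 and XBP1 arms of the unfolded protein response (UPR). FKBP9 is itself an ER resident of the FKBP prolyl isomerase family, and the study examined whether its loss perturbs the UPR.

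The deposited values are FPKM, fragments scaled by gene length and library size, which compare levels between genes per length. Fragments on genes numbered 18116873 in shControl and 17158514 in shFKBP9. FKBP9, the gene targeted by the shRNA, stood at 49.8 FPKM in shControl against 4.68 FPKM in shFKBP9. The 5 mesenchymal glioma markers lay between 48.6 and 1136 FPKM in shControl and between 55.6 and 1345 FPKM in shFKBP9. Of the glial markers GFAP, S100B, SOX2, OLIG2 and NES, only NES passed 1 FPKM (2.36 in shControl and 2.17 in shFKBP9), and of the epithelial markers EPCAM, CDH1, KRT8 and KRT18, only KRT8 did (1.28 and 1.09), so the defining markers of the labelled epithelial and glial identities were mostly near 0. All 5 blood and plasma cell markers had at most 3 fragments over both libraries, and the 4 keratinocyte markers summed to 0.127 FPKM in the control library and 0.875 FPKM in the other.

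The folding genes were abundant in both libraries, and their order barely differed between them. Together they held 2912 FPKM in shControl and 2861 FPKM in shFKBP9, that is 1.08% and 1.05% of all FPKM. CALR, which encodes the lectin chaperone calreticulin, led at 757 FPKM in shControl and 756 FPKM in shFKBP9 and ranked 28 among protein-coding genes in each. HSPA5, encoding BiP, the main Hsp70 of the ER, came next at 403 and 372 FPKM, followed by P4HB, encoding protein disulfide isomerase itself, at 232 and 227. In all, 9 genes exceeded 100 FPKM in both libraries and 25 exceeded 10 FPKM in both. At the other end ERO1B, an ERO1 paralog, was at 0.546 and 0.522 FPKM, from 53 and 48 fragments, and it was the only member under 1 FPKM in both libraries.

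Some promoters of these genes carry a known stress element. Its pattern was set by hand from general knowledge, so its presence in well-known chaperone genes is a description and not a test. The ER stress response element (ERSE), the site through which ATF6 and XBP1 are known to act, was searched as CCAAT and CCACG with 9 bases of any kind between them, on either strand, in RefSeq promoter windows of 250 bases before to 50 bases after the start (GRCh38.p14). It was found in 27 of all 35116 windows (0.0769%), belonging to 25 of 27305 genes. The table matched 33 of the 36 members, all but PDIA3, MOGS and QSOX2, and 7 of these 33 held an exact ERSE, a minority. The shorter ERSE-II, ATTGG and CCACG with 1 base between them, was found in 19 windows (0.0541%), of which 2 belonged to members, HYOU1 and SDF2L1. The sites are shown because they tie the chaperones to the UPR by sequence. They are written on the strand of the gene, and capitals mark the fixed letters of the element, which read CGTGG before ATTGG (ERSE) or CCAAT (ERSE-II) where the element lies reversed.
HSPA5 (chr9:125241386-125241415, minus strand, 66 bases before the start): ccttcaCCAATcggcggcctCCACGacggg
HSP90B1 (chr12:103930210-103930239, plus strand, 194 bases before): ccctgaCCAATcggaaggagCCACGcttcg
HSP90B1 (chr12:103930315-103930344, plus strand, 89 bases before): tgggtgCGTGGtgcggcgcgATTGGtgggt
PDIA6 (chr2:10812848-10812877, minus strand, 86 bases before): cccggaCCAATgagccgcagCCACGgcttg
CALR (chr19:12938378-12938407, plus strand, 225 bases before): cccacgCGTGGtcgaccatcATTGGtcggt
CANX (chr5:179698772-179698801, plus strand, 151 bases before 1 of its starts): tcccggCCAATcttcacactCCACGaagaa
CRELD2 (chr22:49918548-49918577, plus strand, 80 bases before): acctctCGTGGcgaactcggATTGGgccat
ERO1B (chr1:236282178-236282207, minus strand, 243 bases before): ggcccgCGTGGtcccgcctcATTGGccgcc
HYOU1, ERSE-II (chr11:119057375-119057396, minus strand, 185 bases before): ccgtgaCGTGGtCCAATcccag
HYOU1, ERSE-II (chr11:119057269-119057290, minus strand, 79 bases before): ctgggaCGTGGtCCAATgagta
SDF2L1, ERSE-II (chr22:21642108-21642129, plus strand, 188 bases before): cggaagCGTGGaCCAATcaaaa

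The core of the UPR element that XBP1 binds, TGACG followed directly by TGG, was present in 256 windows (0.729%), among them those of TXNDC5, TXNDC11 and HYOU1, where it overlapped the distal ERSE-II. The amino acid response element of ATF4, searched as TGATG and AA with 1 base between them, was in 1270 windows (3.62%) and in 0 of the 43 windows of members. These are matches of letters and say nothing of occupancy.

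A difference is given as a log2 ratio, shFKBP9 over shControl, after 0.1 was added to both FPKM values, and the 95% intervals in brackets are exact Clopper-Pearson intervals from the fragments, which measure counting precision alone. The ratios of the members were small. Of the 35 members with at least 1 FPKM in either library, 0 passed 2-fold in either direction, where 0.213% of 10346 protein-coding genes with the same minimum were more than 2-fold higher and 0.193% more than 2-fold lower. At 1.2-fold, 3 members were higher (CLGN, TMX3 and UGGT2), against 9.11% of protein-coding genes, and 1 was lower (TXNDC5), against 10.9%. The members' share is close to this background in the first case and below it in the second. HYOU1 at -0.26, MOGS at -0.25 and HSP90B1 at 0.25 lay just inside 1.2-fold. The counting interval lay above 0 for 8 members, against 19.7% of protein-coding genes, and below 0 for 12, against 24.0%. The members' shares were 22.9% and 34.3%. With both libraries scaled to the same median the numbers of members were 11 and 10, against 23.1% and 20.2% of genes. Because deep counts narrow the interval and the members are abundant, the same was counted above a minimum of 10 FPKM, where 25.2% of genes and 4 of 25 members lay above 0, and 31.1% of genes and 10 of 25 members below 0. The median ratio of the 35 members was -0.03, beside -0.02 over all 10346 genes. In bulk RNA, a change in each cell and a change in the mix of cells cannot be told apart.

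The BiP and GRP94 system did not move in 1 direction. HSPA5 had 28503 fragments in shControl and 24947 in shFKBP9, a ratio of -0.12 (-0.14 to -0.09), so its level in shFKBP9 was 92.3% of that in shControl. HSP90B1, which encodes GRP94, the Hsp90 of the ER, went the other way. It stood at 186 FPKM in shControl and 222 FPKM in shFKBP9, with a ratio of 0.25 (0.22 to 0.28). The level of HSP90B1 was thus 0.463 times that of HSPA5 in shControl and 0.596 times in shFKBP9. The nucleotide exchange factors of BiP also split. HYOU1, the large Hsp70 that recharges BiP, was lower, at 22.5 FPKM in shControl and 18.8 in shFKBP9 (-0.26, -0.33 to -0.18). SIL1, the other exchange factor, was higher, at 7.97 and 9.21 FPKM (0.21, 0.04 to 0.37). SDF2L1, a partner of the ER J-domain proteins that deliver clients to BiP, was lower at 43.8 and 37.1 FPKM (-0.24, -0.39 to -0.10). MANF, a secreted ER stress protein that binds BiP, was at 55.6 and 53.7 FPKM, with an interval that included 0 (-0.13 to 0.03).

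In the lectin chaperone cycle the ratios of the main lectins were near 0, while enzymes that act on the glycan differed by direction. The ratio of CALR was -0.00 (-0.02 to 0.02) over 72462 fragments. CANX, the membrane-bound lectin calnexin, was at 138 and 140 FPKM (0.02, -0.01 to 0.05). Both intervals exclude a difference of 1.2-fold by counting error. CLGN, calmegin, the calnexin paralog best known from testis, was far less abundant, at 3.46 FPKM in shControl and 5.18 FPKM in shFKBP9. Its ratio of 0.57 (0.31 to 0.85) was the largest of the members, from 196 and 278 fragments, and CANX exceeded it by 39.8 times in shControl and 27.0 times in shFKBP9. The 3 genes for enzymes that trim the glycan before and during the cycle had intervals below 0, where 24.0% of protein-coding genes did. With the median ratio of genes of like GC content subtracted, as described further on, GANAB was at -0.01 with an interval that included 0. PRKCSH (-0.06) and MOGS (-0.14) kept intervals below 0 on that scale, where 16.9% of protein-coding genes had one. MOGS, glucosidase I, stood at 24.1 and 20.2 FPKM (-0.25, -0.36 to -0.14). GANAB, the catalytic subunit of glucosidase II, stood at 196 and 182 FPKM (-0.10, -0.13 to -0.07). PRKCSH, its other subunit, had 9354 and 7863 fragments (-0.17, -0.22 to -0.13). Of the glucosyltransferases that return unfolded glycoproteins to the lectins, UGGT1 was at 16.6 and 16.8 FPKM (0.02, -0.05 to 0.09). UGGT2 was at 5.30 and 6.52 FPKM (0.29, 0.16 to 0.44). The study listed UGGT2 and ERO1A among its upregulated ER stress genes from these libraries, so their direction is not independent of that choice.

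Among the 11 disulfide isomerases and related proteins, 6 had intervals below 0 and 1 had an interval above 0, where 24.0% and 19.7% of protein-coding genes did. Shifted by that median of genes of like GC content, the intervals of PDIA6 and ERP29 were below 0, where 16.9% of protein-coding genes were. Those of P4HB, PDIA3 and CRELD2 were above 0, where 19.0% of protein-coding genes were. P4HB, which also serves as a subunit of collagen prolyl hydroxylase, was almost level, with a ratio of -0.03 (-0.06 to -0.01). PDIA3, also called ERp57, the partner of the lectin chaperones, was the 1 that was higher, at 119 FPKM in shControl and 125 FPKM in shFKBP9 (0.08, 0.03 to 0.12). PDIA4 was at 167 and 153 FPKM (-0.13, -0.17 to -0.09). PDIA6, which acts with BiP, was at 61.0 and 52.1 FPKM (-0.23, -0.29 to -0.16). ERP29, a family member without an active cysteine pair, was at 43.5 and 39.7 FPKM, a ratio of -0.13. TXNDC5 was at 4.63 FPKM in shControl and 3.81 FPKM in shFKBP9 and had the lowest ratio of all members, -0.28 (-0.51 to -0.06), from 368 and 287 fragments. CRELD1 was at 8.08 and 7.03 FPKM (-0.20, -0.38 to -0.02). Its paralog CRELD2, a known ER stress gene, was at 16.7 and 17.0 FPKM, with an interval that included 0 (-0.08 to 0.13). The intervals of ERP44, which retrieves client proteins from the Golgi, of PDIA5 and of TXNDC12 also included 0. The span of CRELD2 overlaps that of ALG12 on the opposite strand, and TXNDC12 overlaps BTF3L4 and KTI12. SIL1 also overlaps SNHG4 (160 and 186 fragments, beside 579 and 634 of SIL1), TXNDC11 overlaps SNN, PPIC overlaps SNX24 and PDIA5 overlaps SEC22A. ERO1B overlaps GPR137B (35 and 41 fragments, beside 53 and 48 of ERO1B). KTI12 and SEC22A lie on the same strand as the member they overlap, where strand cannot separate the reads. For the others, whether counting used strand is not given in the sources used here. All these values are less certain.

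The transmembrane thioredoxin proteins carry thioredoxin-like domains on an anchor in the ER membrane. Of these 5 genes, TMX3 and TMX1 had intervals above 0, where 19.7% of protein-coding genes did, and the intervals of TMX2, TMX4 and TXNDC11 included 0. That of TMX1 also included 0 once shifted by GC content (0.09). TMX3 stood at 4.42 FPKM in shControl and 5.86 FPKM in shFKBP9 (0.40, 0.25 to 0.56). TMX1 stood at 18.0 and 21.0 FPKM (0.23, 0.12 to 0.33). The most abundant of the group, TMX2, was at 32.7 and 32.0 FPKM, and its ratio was -0.02 when its pseudogene and a read-through transcript were added.

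Over all protein-coding genes with at least 1 FPKM, 19.7% of intervals lay above 0 and 24.0% below. Of the sulfhydryl oxidases, which pass electrons from cysteines to oxygen, only ERO1A had an interval that excluded 0. It stood at 29.0 FPKM in shControl and 33.9 FPKM in shFKBP9 (0.22, 0.16 to 0.29), so that P4HB, the isomerase it oxidizes, exceeded it 8.02 times in shControl and 6.71 times in shFKBP9. For ERO1B the interval ran from -0.66 to 0.52, and no difference was detectable at this depth. QSOX1, an oxidase of the Golgi and secreted space, was at 31.6 and 31.7 FPKM (0.01, -0.05 to 0.06). QSOX2 was at 15.5 and 14.3 FPKM (-0.11, -0.22 to 0.01). The cyclophilins, prolyl isomerases of another family than FKBP9, had ratios near 0. PPIB, cyclophilin B, was at 108.9 and 109.7 FPKM (0.01, -0.06 to 0.08), and PPIC at 21.0 and 20.4 FPKM (-0.04, -0.19 to 0.10).

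The direction of the ratios followed the GC content of the transcripts, in the members and in all genes. GC content was taken from the longest transcript of each gene in GENCODE release 44. Over all protein-coding genes with at least 1 FPKM, split into 10 equal parts by GC content, the median log2 ratio was 0.14 in the part poorest in GC (up to 38.1%) and -0.13 in the richest (from 61.4%). The 8 members with intervals above 0 had a median GC content of 37.6%, and the 12 members with intervals below 0 had one of 53.9%. Across the 35 members Pearson's r between GC content and ratio was -0.69 and Spearman's rho -0.62, and across 10329 genes they were -0.36 and -0.44. All points come from the same pair of libraries, and genes are not replicates.

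With the median of its own GC part subtracted, an alternative chosen after this trend was seen, the ratio of CLGN was 0.43, that of SIL1 0.30 and that of TMX3 0.26. CLGN and SIL1 were then past 1.2-fold (7.87% of genes higher) and 0 members were lower (7.53%). The ratio of UGGT2 was 0.15, that of HSP90B1 0.14 (0.25 before), that of ERO1A 0.08 (0.22 before) and that of TMX1 0.09 (0.23 before). Of the lower genes, TXNDC5 was at -0.22, PDIA6 at -0.20, HYOU1 at -0.16 and HSPA5 at -0.14, while GANAB came to -0.01 and PDIA4 to -0.04. P4HB turned from -0.03 to 0.06. The main lectins parted on this scale, CALR at 0.09 with its interval above 0 and CANX at -0.04 with its interval below 0. PPIB (0.11) and QSOX1 (0.10) also had shifted intervals above 0. Shifted in the same way, the intervals were more often above 0 than below it, at 12 members (19.0% of genes) against 7 (16.9% of genes). HSPA5 below 0 and HSP90B1 above 0 were found on both scales, whereas the shifted intervals of GANAB, PDIA4, TXNDC5, SDF2L1, CRELD1 and TMX1 included 0. With 1 library per condition, a difference in how the libraries recovered GC-rich transcripts and a difference between the conditions cannot be told apart.

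Genes with the stress element did not share a direction. Among the 8 members that held ERSE or ERSE-II and passed 1 FPKM, HSP90B1 was the 1 with an interval above 0. HSPA5, PDIA6, HYOU1 and SDF2L1 had intervals below 0, and those of CALR, CANX and CRELD2 included 0. Over all protein-coding genes 19.7% of intervals lay above 0 and 24.0% below. The 8 members' median ratio was -0.06, beside -0.01 for the 24 members with a promoter window and neither element. Outside the members, 20 expressed genes held an element, with a median of -0.01, 7 intervals above 0 and 1 below 0. With the GC part subtracted, intervals above 0 were those of CALR, CRELD2 and HSP90B1 among the members and 5 among the other genes, and intervals below 0 were those of HYOU1, PDIA6, HSPA5 and CANX and of 1 other gene, where 19.0% of all genes were above and 16.9% below. The other genes included XBP1, the transcription factor of the IRE1 arm, at 29.1 FPKM in shControl and 31.3 FPKM in shFKBP9 (0.11, 0.00 to 0.21, and a ratio of 0.04 whose interval included 0 with the GC part subtracted), SERP1, which stabilizes nascent membrane proteins, at 21.3 and 23.3 (0.13, 0.04 to 0.21), and HERPUD1, of ER-associated degradation, at 16.2 and 16.7 (0.05, -0.06 to 0.15). The FPKM of XBP1 is a value per gene and does not separate its spliced RNA, whereas the paper blotted the spliced form as protein. The ratios of ALG12 (-0.09), NUCB1 (-0.07) and FICD (-0.07) were below 0, with intervals that included 0. SYNPO, at -0.44, was the lowest and TMEM120A, at 0.33, the highest. ALG12 faces CRELD2 across a shared promoter, so its element is the same site.

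Other genes of ER folding were compared in the same way. The 6 ER J-domain cochaperones, which hand clients to BiP, had a median ratio of 0.07, with 3 intervals above 0 and 0 below (19.7% and 24.0% of protein-coding genes). With TPM 2 were above and 1 below (17.2% and 27.0%), and with at least 10 FPKM 0 were above (25.2%). DNAJB9, or ERdj4, an inducible cochaperone, was at 3.52 FPKM in shControl and 4.85 FPKM in shFKBP9 (0.45, 0.17 to 0.75), and SEC63, of the translocon, at 7.27 and 9.21 (0.34, 0.23 to 0.46). With the GC part subtracted the median of this list was -0.06. Of 7 other members of the disulfide isomerase family only TXNDC15 passed 1 FPKM, at 13.4 and 13.1, and AGR2, AGR3 and PDILT had 0 fragments in both libraries. The 6 expressed genes among 7 other thiol and redox proteins had ratios from 0.07 to 0.32, with a median of 0.14 and 3 intervals above 0 (19.7% of protein-coding genes), or 5 with median scaling (23.1%). VKORC1, of the vitamin K cycle, was at 11.3 and 14.1 FPKM (0.32, 0.14 to 0.50) and the selenoprotein SELENOM at 23.0 and 27.2 (0.24, 0.14 to 0.35). Of the 6 ER FKBP genes, FKBP9 had a ratio of -3.38 and the other 5 lay between 0.01 and 0.21, with intervals above 0 for FKBP14 (0.21, 0.04 to 0.39) and FKBP2 (0.12, 0.02 to 0.21), that is 2 genes, or 3 with median scaling (23.1% of protein-coding genes) and 1 with TPM (17.2%) or with at least 10 FPKM (25.2%). With the GC part subtracted FKBP14 was at 0.09 with an interval that included 0, and the 2 genes with intervals above 0 were FKBP2 (0.24) and FKBP10 (0.15).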

How the data were processed

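RNA of control and FKBP9-depleted SF-539 cells was sequenced, 1 library each. Per the labels and methods, the authors removed adapter, poly-N and low-quality reads, aligned paired-end reads to hg38 with HISAT2 2.0.5, counted them per gene with featureCounts 1.5.0-p3 and used edgeR; the annotation is not given in the sources used here. The authors deposited FPKM. No column of another sample was present.

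FPKM multiplied by gene length came out as whole multiples of 1 step per library for 100% of values above 0 (within 0.01 fragments), which gave the fragments. A fragment on 1 kilobase is worth 0.0552 FPKM in shControl and 0.0582 in shFKBP9. Ratios, minimum and intervals were as stated in the report, and calculations were tested on simulated data. Backgrounds used protein-coding genes. The text names all 36 members, FKBP9, and in each other list the 2 genes with the largest ratios in each direction among those with at least 1 FPKM and a counting interval excluding 0; genes with ERSE outside the members, TXNDC15, AGR2, AGR3, PDILT and FKBP10 were named after their values were seen. The members and all lists were chosen with earlier results of these data known. Alternatives were 1 or 0.01 added to FPKM, median or TPM scaling, no minimum or 10 FPKM, summed copies and, added later, subtraction by GC content. Calculations ran in Python 3.11.15 with scipy 1.17.1, pandas 2.3.3 and numpy 2.4.6, and plots in matplotlib 3.10.9. The motif patterns were set by hand from general knowledge of these elements, not taken from the deposited files or the reference tables; the sites printed were read from the RefSeq promoter windows. Protein sequences were not used here.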

Additional observations from a re-analysis of the deposited data

How the results depend on the processing

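The numbers of members past 2-fold were 0 in both directions under all alternatives run, and the median ratio of the members lay between -0.05 (TPM) and -0.00 (median scaling). The number past 1.2-fold and lower, 1 as reported, was 0 with 1 added to FPKM (6.92% of all genes), with median scaling (9.26%), with at least 10 FPKM (6.23%) and relative to genes of like GC content (7.53%), and 3 with TPM (12.8%). The number past 1.2-fold and higher, 3 as reported, was 4 with median scaling (10.9% of all genes), where HSP90B1 passed, 2 with 1 added to FPKM (5.97%) and relative to genes of like GC content (7.87%), and 0 with at least 10 FPKM (6.78%), since CLGN, TMX3 and UGGT2 lie below that level. With at least 10 FPKM, 4 of 25 members had intervals above 0 (25.2% of all genes) and 10 below 0 (31.1%). Relative to genes of like GC content, 12 of 35 members had intervals above 0 (19.0% of all genes) and 7 below 0 (16.9%). P4HB changed sign there, to 0.059, as did CALR, CANX, MANF, UGGT1, TMX2 and TMX4, whose intervals had included 0, and 15 members other than P4HB moved beyond their counting intervals. Scaling changed the sign of CALR (median scaling, 0.02) and of UGGT1, QSOX1 and PPIB (TPM, -0.00 to -0.01), whose intervals as reported in FPKM include 0. Copies added to PDIA3 gave 0.07. No paired analysis was possible because each condition has 1 library, and for the same reason no library could be left out.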
